A study of Homo sapiens with 6 samples.

Results

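Antisense genes are transcribed from the strand opposite a gene whose name they carry, and the 426 antisense genes described here were chosen by symbol and level. The level was a mean over all 6 libraries, so that a gene with reads mostly in hypoxia could pass. Of 27754 gene symbols in the count files, 1109 ended in a hyphen, AS and a digit, and 426 of these had a mean of at least 20 reads over the 6 libraries. Each was paired with its sense partner, the gene named before the hyphen. The files listed 413 distinct partners, of which 6 had several antisense genes, and listed no partner for 7 antisense genes (HOXC-AS1, HOXC-AS2, HOXC-AS3, HOXB-AS1, RPARP-AS1, KRTAP5-AS1 and JHDM1D-AS1). The genes just below the limit were TMEM132D-AS1 and SLC12A9-AS1, each with a mean of 19.5 reads, and LBX2-AS1 with 19.7, and those just inside were PLBD1-AS1 and MKX-AS1 with 20.2 and SPATA3-AS1 with 21 reads.

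The RNA came from T47D, an established human cell line of luminal-like breast cancer that expresses the estrogen and progesterone receptors. 3 libraries were from cells in 20% O2 (normoxia) and 3 from cells held for 48 h in a chamber at 0.5% O2 (hypoxia), as the labels give it. The study's text names another O2 level for the sequenced hypoxia cultures. No transgene, deletion or drug separated the groups, and the study calls its replicates independent experiments, although the labels do not say whether the cultures were separate, so that the p-values measure the spread between these libraries. In RNA from whole cultures, fewer cells of a type and less RNA per cell cannot be told apart.

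Antisense genes are a mixed class. Some start beside the promoter of the partner and are read away from it (head to head), and such divergent transcription is common at promoters rich in CpG. Others start inside or beyond the partner and run through its exons, so that both RNAs could form a double strand, and a few are host genes of small nucleolar RNAs or act on other genes. Many such RNAs stay in the nucleus at low levels, where the nuclear exosome degrades divergent and unstable transcripts. In low oxygen the factor HIF-1, made of HIF1A and a constant partner, accumulates and binds the core ACGTG or GCGTG near genes of glycolysis, glucose uptake and vessel growth.

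The libraries held 32989104 to 89883409 counted reads, the deepest being hypoxia replicate 3, and the 426 antisense genes took 0.337% to 0.416% of them. Luminal markers summed to 10760 to 17000 CPM (counts per 1000000 counted reads of a library), among them ESR1, PGR, GATA3 and keratins, whereas TFF1 was at most 1.81 CPM and the leukocyte and endothelial lists summed to at most 2.01 and 0.412 CPM. The basal and mesenchymal list summed to 91.0 to 134.8 CPM, most of it COL1A1. Replicate 3 stood apart in both conditions, with VIM at 11.14 and 11.97 CPM against at most 1.01 CPM in the other 4 libraries, and results without replicate 3 are given with the limits. Members are described in CPM scaled by the trimmed mean of M-values (TMM), and changes are the log2 fold change of hypoxia over normoxia ± its standard error, called where the adjusted p was under 0.05. Where all libraries of a gene are given, the values stand in the order of replicates 1, 2 and 3, and means are given ± SD over the 3 libraries of a condition.

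Where the start sites lie next to each other, the DNA between them is shared, and these intervals show what the head-to-head pairs have in common. In the GRCh37 reference, the build of the files, 90 head-to-head pairs had starts no more than 300 bases apart with an interval that could be read, with a median of 110 bases. The first 2 of the intervals below belong to pairs chosen by the naming rule, and PRKAR2A-AS1 and PSMG3-AS1 were chosen after their values were seen, as close pairs called in opposite directions. They are written 5′ to 3′ on the strand of the antisense gene, with the partner's start at the left, and capitals mark the cores ACGTG and GCGTG named above, on either strand (on the other strand a core reads as its reverse complement). The positions are chr1:201979482-201979689 (minus strand) for ELF3-AS1, chr17:79885588-79885704 (plus strand) for MAFG-AS1, chr3:48885284-48885369 (plus strand) for PRKAR2A-AS1 and chr7:1609669-1609708 (plus strand) for PSMG3-AS1.
ELF3-AS1 to ELF3: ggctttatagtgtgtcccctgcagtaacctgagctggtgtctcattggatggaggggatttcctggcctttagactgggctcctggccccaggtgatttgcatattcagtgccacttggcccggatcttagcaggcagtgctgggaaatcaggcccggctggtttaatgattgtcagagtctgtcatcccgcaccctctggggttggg
MAFG-AS1 to MAFG: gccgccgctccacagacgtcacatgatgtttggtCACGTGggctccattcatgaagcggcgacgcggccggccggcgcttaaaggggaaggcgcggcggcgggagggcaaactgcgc
PRKAR2A-AS1 to PRKAR2A: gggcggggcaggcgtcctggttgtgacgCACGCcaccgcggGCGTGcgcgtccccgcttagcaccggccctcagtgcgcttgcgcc
PSMG3-AS1 to PSMG3: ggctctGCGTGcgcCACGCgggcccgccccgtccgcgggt

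The interval of 208 bases between ELF3-AS1 and ELF3 held 0 cores, and 46.3% of the 516 windows of the same length held at least 1. The MAFG interval of 117 bases held 2 overlapping matches, which are the 2 strands of 1 E-box, CACGTG, also a site for other basic helix-loop-helix factors. The intervals of PRKAR2A-AS1 (86 bases) and PSMG3-AS1 (40 bases) held 2 matches each, where 28.3% and 16.5% of windows of the same length held any. A match is a run of letters only, and no binding was measured here.

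Of antisense genes whose start stands away from that of the partner, the 250 bases upstream are shown for 2 examples. Both rose strongly, and their windows touch no counted exon. Other antisense genes met the same terms, so that the matches in these 2 windows stand for no group. HIF1A-AS2 (chr14:62215808-62216057, minus strand) begins beyond the end of HIF1A, and ZNF350-AS1 (chr19:52452137-52452386, plus strand) lies with its last part inside ZNF350. Capitals again mark the cores on either strand.
HIF1A-AS2 upstream: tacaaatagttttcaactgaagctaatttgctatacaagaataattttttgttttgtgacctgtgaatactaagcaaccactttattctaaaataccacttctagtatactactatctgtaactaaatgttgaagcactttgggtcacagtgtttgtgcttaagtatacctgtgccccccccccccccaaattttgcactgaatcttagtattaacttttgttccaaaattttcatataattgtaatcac
ZNF350-AS1 upstream: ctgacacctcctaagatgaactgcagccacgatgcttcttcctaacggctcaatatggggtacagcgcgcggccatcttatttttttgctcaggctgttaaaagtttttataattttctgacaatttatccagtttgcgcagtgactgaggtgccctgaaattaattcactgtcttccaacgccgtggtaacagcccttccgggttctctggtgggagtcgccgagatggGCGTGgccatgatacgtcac

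The HIF1A-AS2 window held 0 matches and the ZNF350-AS1 window 1. Over all antisense genes with a window, 231 of 422 (54.7%) held a match in the 250 bases upstream, as did 217 of 409 partners (53.1%) and 12039 of 27008 genes in all (44.6%). The share was 57.9% (92 of 159) for antisense genes that rose in hypoxia, 54.0% (27 of 50) for those that fell and 52.6% (112 of 213) for those not called, and these differences were not tested.

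In hypoxia more antisense genes rose than fell. Of the 426, all of which could be tested, 163 (38.3%) rose and 50 (11.7%) fell, with a median log2 fold change of 0.35. Over all 15657 tested genes 30.4% rose and 29.1% fell, with a median of 0.028. The antisense genes had low counts, with quartiles of 49.2, 120 and 293 reads, and the 2566 tested genes with a mean count between the outer quartiles had 47% called higher, 10.4% called lower and a median of 0.548. Read against genes at their own level, the balance of rises and falls is therefore no result about antisense genes. Their partners, with a median of 1854 reads, were called in both directions, 126 of 383 (32.9%) higher and 113 (29.5%) lower, with a median of 0.023.

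**Figure D1:**
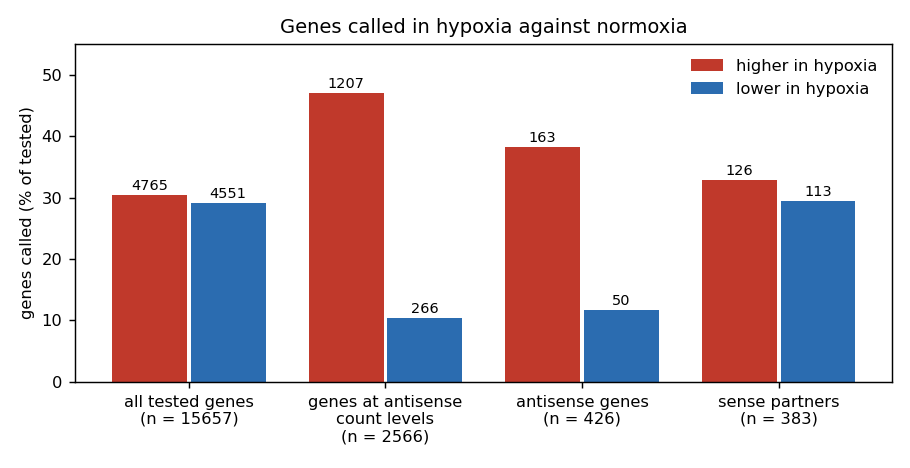
Percentage of tested genes called higher (red) or lower (blue) in hypoxia by edgeR's quasi-likelihood test at an adjusted p under 0.05, for all tested genes, for tested genes with counts in the antisense genes' interquartile range, for antisense genes and for sense partners, with the number of genes above each bar. Antisense genes were mostly called higher (163 against 50), as were all genes at their counts (1207 against 266), whereas partners were called 126 higher and 113 lower.

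Both genes could be tested in 388 pairs, and both were called in 135. In 83 of these the changes had the same direction (62 both higher, 21 both lower), and in 52 they were opposite (41 with the antisense gene higher and the partner lower, 11 the reverse). The agreement that these calls would give without any pairing was not computed, nor were other pairs counted so. These counts and those by position below are therefore a description. The antisense gene alone was called in 62 pairs, the partner alone in 107 and neither in 84. Across the 388 pairs the log2 fold changes of antisense gene and partner had a Pearson r of 0.225 and a Spearman rho of 0.207, a description only, since all pairs share the 6 libraries. With both genes at a mean of at least 100 reads r was 0.066 and rho 0.139.

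**Figure D2:**
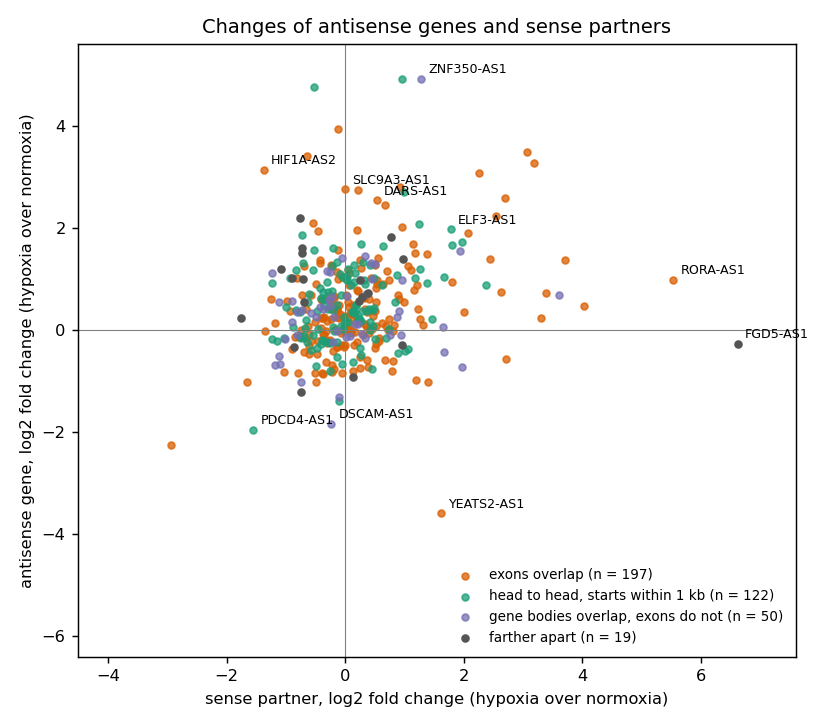
Log2 fold change (hypoxia over normoxia) of each antisense gene (vertical axis) against that of its sense partner (horizontal axis) for the 388 pairs with both genes tested, coloured by the position of the pair. The points spread over all 4 quadrants (r = 0.225), with ELF3-AS1 high on both axes, HIF1A-AS2 and YEATS2-AS1 in opposite corners, and FGD5-AS1 and RORA-AS1 far to the right.

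The pairs differed in how the genes lie. Counted exons overlapped in 214 pairs, only the gene bodies in 60, 125 were head to head with starts within 1 kb and no overlap, 10 head to head farther apart and 10 tail to tail. In the 214 pairs with overlapping exons 73 antisense genes rose and 23 fell, and both genes were called in the same direction in 44 pairs and in opposite directions in 16. Among the 125 close head-to-head pairs 55 antisense genes rose and 12 fell, while 38 partners rose and 43 fell, so that the called pairs divided almost evenly, 24 in the same direction and 20 opposite. In the 60 pairs with overlapping bodies only, 21 antisense genes rose and 9 fell, with 10 pairs in the same and 8 in opposite directions. Pearson's r over pair changes was 0.283 with overlapping exons, 0.232 with overlapping bodies and 0.281 for close head-to-head pairs. With overlapping exons 34.1% of the antisense genes rose and 10.7% fell. For close head-to-head pairs the shares were 44% and 9.6%, and with overlapping bodies only 35% and 15%. Over all tested genes 30.4% rose and 29.1% fell, and at the antisense genes' counts 47% and 10.4%. The counts called are therefore no result about position. Differences between these classes were not tested.

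Reads from overlapping exons can be given to an antisense gene only where counting kept the strands apart, and the counting command is not given in the sources used here. Counting that ignored strand would have left a gene lying wholly in exons of an opposite-strand gene without reads. Of genes with at least 300 exon bases, 12 lay wholly inside exons of the opposite strand, 10 of these had reads and 3 had over 120 (MIF with 102036 reads in total, C19orf33 with 3698 and HYI with 2660). Of 269 genes that lay wholly in exons of the same strand, 48 had reads and 0 had over 120, the highest being CHKB-CPT1B with 114. Opposite-strand genes were thus counted apart, although a small leak of reads from the wrong strand could not be measured. The antisense gene had under 2% of the reads of its partner in 37 pairs with overlapping exons, and its value in such pairs is uncertain.

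Most antisense genes were scarcer than their partners. The median antisense gene had 8.73% of the reads of its partner, and in only 66 of 388 pairs was its level per kilobase of exon above that of the partner. The ratio of antisense to sense RNA was compared within each library with limma, in 3052 opposite-strand neighbouring pairs. Of all those neighbouring pairs 52% were called, and among the 388 pairs here 51.5%, a share near the background, with the antisense gene gaining on its partner in 141 and the sense gene gaining in 59. This direction was not compared with other pairs. Genes at the antisense genes' counts were called higher in 47% and lower in 10.4%, whereas partners were called 32.9% higher and 29.5% lower. The balance of 141 against 59 is therefore no result about antisense genes.

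HIF1A and its antisense gene HIF1A-AS2 moved in opposite directions. HIF1A encodes the oxygen-regulated subunit of HIF-1, and HIF1A-AS2 (chr14:62213757-62215807, minus strand) overlaps the last exon of HIF1A (chr14:62162119-62214977, plus strand), with 1221 of its 2051 exon bases (59.5%) inside HIF1A exons. HIF1A-AS2 had 0.253, 0.645 and 0.355 CPM in normoxia and 4.15, 4.05 and 2.99 CPM in hypoxia. All 3 hypoxia libraries lay above all normoxia libraries, and the log2 fold change was 3.14 ± 0.34, adjusted p = 0.000243. In the normoxia libraries alone HIF1A-AS2 averaged fewer reads than the limits of 20 for members and 100 for the largest changes. It passed both limits through its hypoxia reads, so that its rise, separation and adjusted p are partly built in by the selection. HIF1A itself had 138, 130.1 and 139 CPM in normoxia and 56.7, 58.7 and 42.4 CPM in hypoxia. These groups did not overlap either, with hypoxia below normoxia (log2 fold change -1.37 ± 0.13, adjusted p = 0.000142). Against its partner the antisense gene gained (log2 change of the ratio 4.58 ± 0.31, adjusted p = 2.98e-05), although HIF1A stayed the more abundant in every library.

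YEATS2 and YEATS2-AS1 formed the mirror image. YEATS2 encodes a reader of acylated histones in the ATAC acetyltransferase complex, and YEATS2-AS1 (chr3:183524852-183528239, minus strand) has 6.48% of its exon bases in YEATS2 exons. YEATS2-AS1 had 9.22, 7.87 and 5.82 CPM in normoxia and 0.840, 0.902 and 0.295 CPM in hypoxia. Hypoxia lay below normoxia in every library, the lowest being hypoxia replicate 3. YEATS2 had 78.9, 78.7 and 79.5 CPM in normoxia and 242, 269 and 218 CPM in hypoxia, again without overlap. The log2 fold changes were -3.59 ± 0.41, adjusted p = 0.000286, for the antisense gene and 1.62 ± 0.09, adjusted p = 3.61e-05, for YEATS2, and the antisense gene lost against YEATS2 (log2 change of the ratio -5.39 ± 0.36, adjusted p = 2.98e-05).

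**Figure D3:**
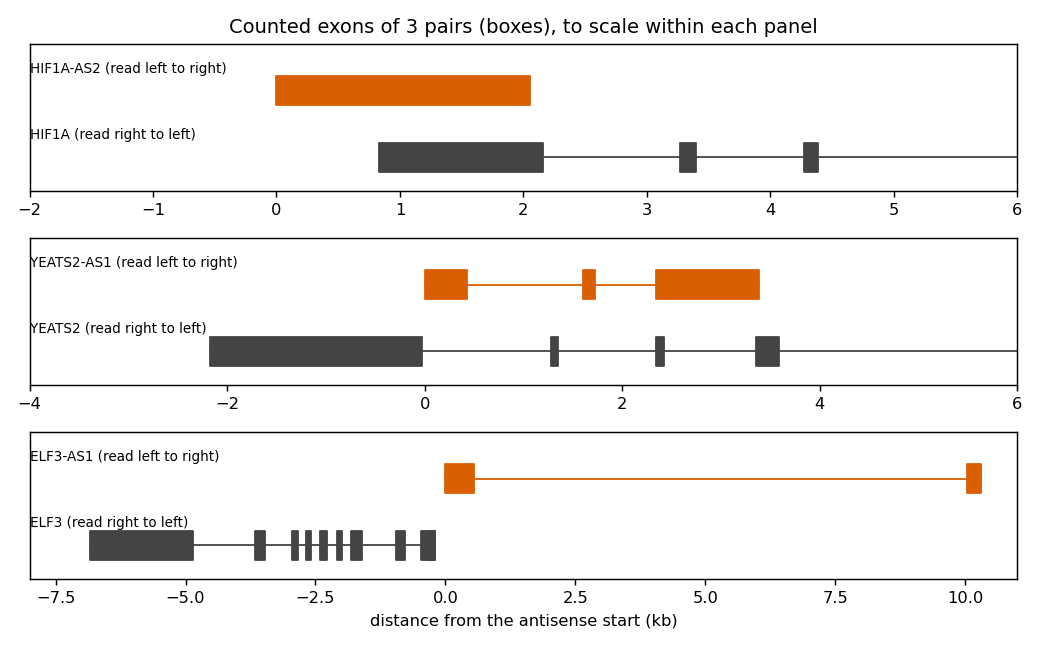
Counted exons (boxes) joined by introns (lines) of 3 pairs, with distance from the antisense start in kb on the horizontal axis, so that the antisense gene (orange) reads left to right and its partner (grey) right to left. HIF1A-AS2 is a single exon of 2051 bases with 1221 of them in exons of HIF1A, YEATS2-AS1 shares 104 bases with YEATS2, and ELF3-AS1 and ELF3 start 209 bases apart and share none.

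Other partners rose while their antisense genes fell. ENTPD1, which encodes the ectonucleotidase CD39, had 1.72, 1.99 and 1.07 CPM in normoxia and 4.22, 4.29 and 4.20 CPM in hypoxia. ENTPD1-AS1 had 7.30, 5.38 and 9.11 CPM in normoxia and 3.41, 3.33 and 3.96 CPM in hypoxia. The groups were separate for both genes, with log2 fold changes of 1.40 ± 0.24, adjusted p = 0.00163, for ENTPD1 and -1.02 ± 0.21, adjusted p = 0.00425, for its antisense gene, which was the more abundant per kilobase (1.10 against 0.220 CPM per kb over the 6 libraries). ARRDC3, an alpha-arrestin, had 31.5, 35.3 and 25.1 CPM in normoxia and 129, 148 and 83.5 CPM in hypoxia, and ARRDC3-AS1 had 5.09, 5.05 and 4.01 CPM in normoxia and 2.74, 2.49 and 3.29 CPM in hypoxia. The partner rose by 1.97 ± 0.22 on the log2 scale (adjusted p = 0.000273) and the antisense gene fell by 0.72 ± 0.18 on the log2 scale (adjusted p = 0.0105). CCDC183 rose by 1.20 ± 0.23 on the log2 scale (adjusted p = 0.00269), and CCDC183-AS1 fell by 0.98 ± 0.16 on the log2 scale (adjusted p = 0.00132).

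FGD5 rose more than any other partner named here, beside a slight fall of FGD5-AS1. FGD5, an exchange factor for the small GTPase Cdc42 best known in endothelium, lies tail to tail with FGD5-AS1, 8213 bases away, and no exon is shared. FGD5 had 16, 4 and 3 reads in normoxia and 947, 663 and 2004 reads in hypoxia (log2 fold change 6.62 ± 0.36, adjusted p = 3.35e-05). FGD5-AS1 had 269.9, 282 and 266 CPM in normoxia and 223, 204 and 253 CPM in hypoxia. Hypoxia again lay below normoxia without overlap, but the log2 fold change was small (-0.27 ± 0.09, adjusted p = 0.0361), and the call was lost with upper-quartile scaling (-0.11, adjusted p = 0.299) and on leaving out normoxia replicate 1 or 2 or hypoxia replicate 1 or 2 (adjusted p = 0.0718, 0.0734, 0.108 and 0.121). Endothelial markers in these libraries summed to at most 0.412 CPM.

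**Figure D4:**
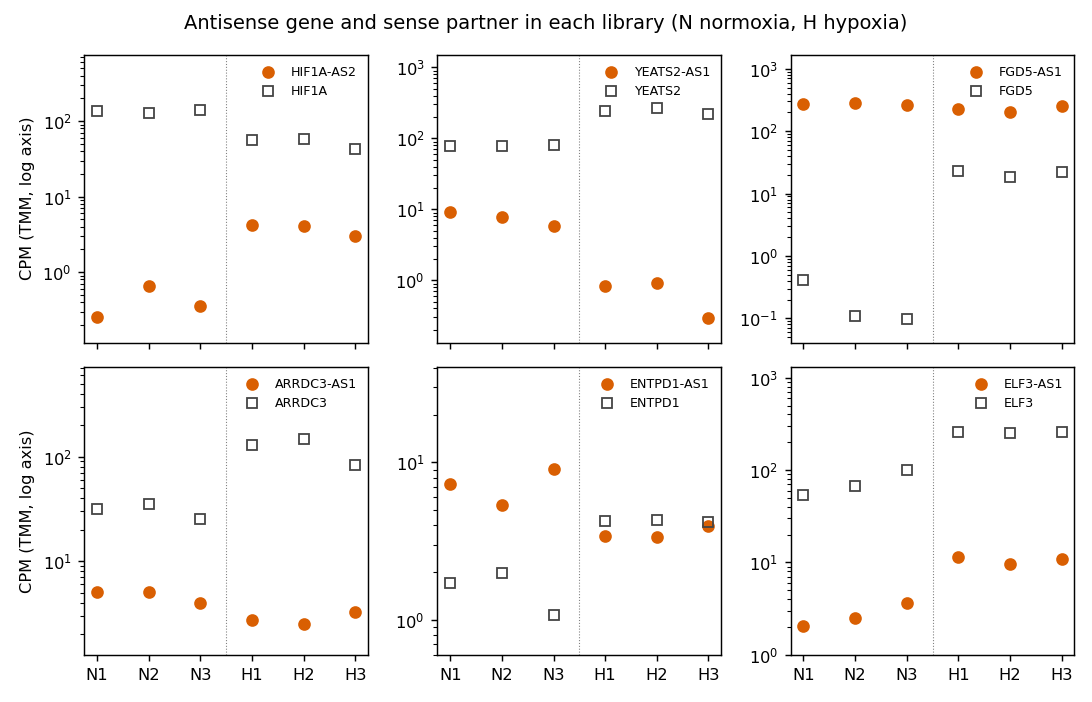
TMM-scaled CPM (log axis) of the antisense gene (filled circles) and its sense partner (open squares) in each library (N1 to N3 normoxia, H1 to H3 hypoxia) for the 5 pairs named as called in opposite directions and for ELF3. HIF1A-AS2 rose as HIF1A fell, YEATS2-AS1, FGD5-AS1, ARRDC3-AS1 and ENTPD1-AS1 fell as their partners rose, and ELF3-AS1 rose with ELF3.

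Head-to-head pairs included both patterns. ELF3 encodes an epithelial ETS factor, and ELF3-AS1 starts 209 bases from it on the other strand, across the interval printed above. ELF3-AS1 had 2.03, 2.53 and 3.62 CPM in normoxia and 11.4, 9.71 and 10.8 CPM in hypoxia. ELF3 had 53.4, 67.6 and 100.4 CPM in normoxia and 255, 249.8 and 258 CPM in hypoxia. Both rose without overlap, by 1.98 ± 0.22 on the log2 scale (adjusted p = 0.000252) and by 1.79 ± 0.21 on the log2 scale (adjusted p = 0.00031), and their ratio did not pass the test (log2 change 0.17 ± 0.15, adjusted p = 0.396). PSMG3, a proteasome assembly chaperone, and PSMG3-AS1 start 41 bases apart and were called in opposite directions. PSMG3-AS1 rose from 9.86 ± 1.95 to 18.8 ± 2.34 CPM (log2 fold change 0.92 ± 0.17, adjusted p = 0.00242), and PSMG3 fell from 67.6 ± 4.30 to 28.7 ± 2.56 CPM (log2 fold change -1.23 ± 0.10, adjusted p = 7.97e-05). PRKAR2A, a regulatory subunit of protein kinase A, starts 87 bases from PRKAR2A-AS1, and fell by 0.70 ± 0.07 on the log2 scale (adjusted p = 0.00021), while PRKAR2A-AS1 rose by 1.30 ± 0.19 on the log2 scale (adjusted p = 0.000784). The groups of these last 4 genes were separate.

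MAFG, a small MAF protein that pairs with NRF2, rose from 28.8 ± 4.14 to 46.6 ± 4.84 CPM (log2 fold change 0.69 ± 0.13, adjusted p = 0.00233). MAFG-AS1, across 117 bases that hold an E-box, had 16.9 ± 2.60 CPM in normoxia and 15.1 ± 4.04 CPM in hypoxia and no call (log2 fold change -0.15 ± 0.20, adjusted p = 0.543). PDCD4 encodes an inhibitor of the translation initiation factor eIF4A. It fell from 634 ± 20.7 to 216 ± 20.1 CPM, and PDCD4-AS1, which starts 891 bases away, fell from 12.9 ± 1.94 to 3.36 ± 0.612 CPM. The falls were by 1.55 ± 0.09 on the log2 scale (adjusted p = 3.82e-05) for PDCD4 and by 1.96 ± 0.18 on the log2 scale (adjusted p = 0.000145) for PDCD4-AS1. The ratio of that pair was not called (log2 change of the ratio -0.41 ± 0.16, adjusted p = 0.056). It was called with the replicate number as a block (-0.39, adjusted p = 0.0145), without both libraries numbered 3 (-0.44, 0.0157) and without normoxia replicate 3 (-0.48, 0.0384). MNX1, a homeobox gene, and MNX1-AS1 start 204 bases apart. MNX1-AS1 had 7.03 ± 1.23 CPM in normoxia and 5.48 ± 1.22 CPM in hypoxia (adjusted p = 0.18), and MNX1 had 10.3 ± 1.32 CPM in normoxia and 12.3 ± 0.982 CPM in hypoxia (adjusted p = 0.125). Neither was called, but with the replicate block the antisense gene was lower (-0.36, adjusted p = 0.0254) and the partner higher (0.26, adjusted p = 0.0364).

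The strongest rise at 100 reads or more was that of ZNF350-AS1 (chr19:52452387-52484620, plus strand), whose partner ZNF350 is a zinc finger repressor. ZNF350-AS1 had 1.77, 1.32 and 2.26 CPM in normoxia and 41.5, 27.6 and 91.2 CPM in hypoxia. The hypoxia libraries were far above the normoxia libraries but differed by more than 3 times among themselves, with replicate 3 the highest. Its log2 fold change was 4.92 ± 0.50, adjusted p = 0.000192, and that of ZNF350 1.28 ± 0.15, adjusted p = 0.000348. SLC9A3-AS1, within the gene of the sodium/proton exchanger SLC9A3, had 6.21, 7.34 and 4.07 CPM in normoxia and 40.3, 42.6 and 36.6 CPM in hypoxia. It rose by 2.75 ± 0.20 on the log2 scale (adjusted p = 5.96e-05), whereas SLC9A3 had 11.4 ± 2.21 CPM in normoxia and 11.3 ± 1.63 CPM in hypoxia (log2 fold change -0.001 ± 0.17, adjusted p = 0.995). DARS encodes the cytosolic aspartyl-tRNA synthetase, and DARS-AS1 rose from 0.708 ± 0.126 to 4.16 ± 0.332 CPM (log2 fold change 2.54 ± 0.21, adjusted p = 9.38e-05), a larger change than that of DARS (log2 fold change 0.53 ± 0.07, adjusted p = 0.000569) by the test of the ratio (log2 change 1.99 ± 0.23, adjusted p = 0.000208).

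ATP2C2, a calcium and manganese pump of the secretory pathway, and ATP2C2-AS1 rose together, by 0.97 ± 0.14 on the log2 scale (adjusted p = 0.000948) and by 2.01 ± 0.18 on the log2 scale (adjusted p = 0.000137). MATN1-AS1 had 49, 38 and 5 reads in normoxia and 150, 173 and 261 reads in hypoxia and rose by 2.17 ± 0.52 on the log2 scale (adjusted p = 0.00799). Its partner MATN1, a cartilage matrix protein, was not tested, with 0, 0 and 0 reads in normoxia and 9, 4 and 5 reads in hypoxia. Below 100 reads the steepest rises were those of TMEM51-AS1 and ZNF30-AS1, singled out after their values were seen, both close head-to-head partners. TMEM51-AS1 had 1, 3 and 0 reads in normoxia and 61, 53 and 63 reads in hypoxia, and ZNF30-AS1 had 2, 1 and 0 reads in normoxia and 41, 37 and 46 reads in hypoxia. The 2 groups of each were separate, but both antisense genes reached the limit on the mean count only through their hypoxia reads. A gene at their normoxia level could be a member only by rising, so that the rises and the separation are built in by the selection. Of the partners, TMEM51 rose by 0.95 ± 0.16 on the log2 scale (adjusted p = 0.00171), while ZNF30 fell by 0.53 on the log2 scale (adjusted p = 0.0162).

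**Figure D5:**
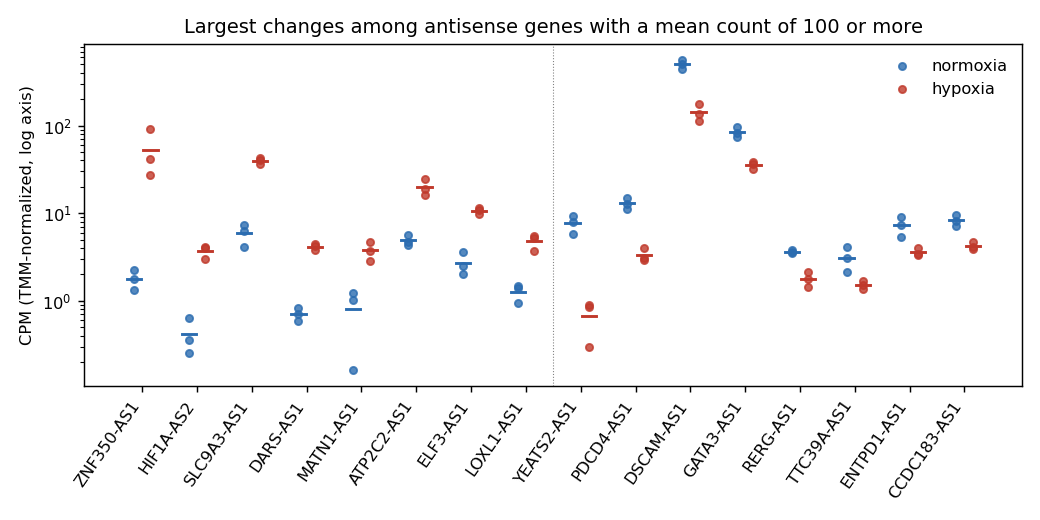
TMM-scaled CPM (log axis) in the 3 normoxia libraries (blue) and the 3 hypoxia libraries (red) of the 8 antisense genes with the largest increase (left of the dotted line) and the 8 with the largest decrease (right) among called genes with a mean of at least 100 reads, with the mean as a bar. The 2 groups of points were separate for all 16 genes. These were picked as called genes with the largest changes, so that the separation is largely built in. Some of them reached a mean of 100 reads only through the condition in which they were high. DSCAM-AS1 fell from the highest level, from 505.8 to 141.9 CPM.

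DSCAM-AS1, GATA3-AS1 and RERG-AS1 were among the 8 steepest falls at 100 reads or more. DSCAM-AS1 is an RNA known for its dependence on the estrogen receptor in luminal breast cancer, and it lies inside an intron of DSCAM, a neuronal adhesion gene. It had 499.9, 569 and 449 CPM in normoxia and 178, 136 and 112 CPM in hypoxia. It fell by 1.84 ± 0.17 on the log2 scale (adjusted p = 0.000156), with every hypoxia library below every normoxia library. DSCAM was not called (log2 fold change -0.23 ± 0.13, adjusted p = 0.153, or -0.35, adjusted p = 0.0087, without both libraries numbered 3) and was far scarcer, at 2.81 against 183 CPM per kb over the 6 libraries. GATA3 is a factor that specifies luminal cells, and GATA3-AS1, read away from it with starts 1220 bases apart, had 81.5, 73.7 and 95.6 CPM in normoxia and 36.8, 32.1 and 38.9 CPM in hypoxia. Both fell, the antisense gene by 1.22 ± 0.12 on the log2 scale (adjusted p = 0.00018), and GATA3 by 0.74 ± 0.09 on the log2 scale (adjusted p = 0.00032), and the antisense gene fell the further of the pair (log2 change of the ratio -0.47 ± 0.11, adjusted p = 0.007).

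RERG, named as an estrogen-regulated growth inhibitor of the Ras family, and RERG-AS1 were also lower. RERG-AS1 fell from 3.65 ± 0.156 to 1.77 ± 0.337 CPM (log2 fold change -1.03 ± 0.20, adjusted p = 0.00295). RERG had 64.9, 73.6 and 33.3 CPM in normoxia and 37.1, 35.7 and 30.0 CPM in hypoxia, so that its groups overlapped, and its call (log2 fold change -0.74 ± 0.26, adjusted p = 0.0382) ended with upper-quartile scaling and on leaving out any library but normoxia replicate 3. TTC39A-AS1 and its partner TTC39A both fell, by 1.03 ± 0.26 on the log2 scale (adjusted p = 0.011) and by 1.66 ± 0.10 on the log2 scale (adjusted p = 3.94e-05). PGR-AS1, antisense to the progesterone receptor gene, was singled out after its values were seen and has a mean of 40.8 reads. It had 68, 62 and 56 reads in normoxia and 13, 18 and 28 reads in hypoxia, without overlap, and fell by 2.24 ± 0.26 on the log2 scale (adjusted p = 0.000338), as PGR fell by 2.93 ± 0.21 on the log2 scale (adjusted p = 5.99e-05). The luminal markers ESR1 and PGR themselves went from 246.7 to 283.2 CPM and 853.8 to 1439 CPM in normoxia to 75.5 to 79.0 CPM and 133.4 to 196.1 CPM in hypoxia, and their part in these results was not tested.

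In 6 pairs the partner was in a list of textbook targets of HIF that was drawn up with earlier results of these data known, so that the direction of these partners is a description. All 6 partners rose, where 30.4% of all tested genes did, whereas 4 of the antisense genes rose, FGD5-AS1 fell and ENO1-AS1 was not called. SLC2A1, the glucose transporter GLUT1, rose from 54.1 ± 3.61 to 188 ± 21.5 CPM (log2 fold change 1.80 ± 0.11, adjusted p = 3.94e-05), and SLC2A1-AS1, which starts 127 bases inside it, had 2.08, 1.67 and 2.10 CPM in normoxia and 3.85, 4.18 and 3.27 CPM in hypoxia. SLC2A1-AS1 rose without overlap (log2 fold change 0.95 ± 0.19, adjusted p = 0.0037) but less than its partner (log2 change of the ratio -0.84 ± 0.18, adjusted p = 0.00454). RORA, a nuclear receptor, had 5, 12 and 3 reads in normoxia and 378, 435 and 463 reads in hypoxia. It rose by 5.54 ± 0.49 on the log2 scale (adjusted p = 0.000119), and RORA-AS1 by 0.98 ± 0.22 on the log2 scale (adjusted p = 0.0057). LOXL1, which crosslinks elastin, and LOXL1-AS1 both rose, by 2.07 ± 0.28 on the log2 scale (adjusted p = 0.000653) and by 1.89 ± 0.25 on the log2 scale (adjusted p = 0.000564), and their ratio did not pass the test (log2 change -0.24 ± 0.30, adjusted p = 0.533).

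The glycolytic enzyme gene ENO1 rose from 1697 ± 219.9 to 2715 ± 249.9 CPM (log2 fold change 0.68 ± 0.12, adjusted p = 0.002). ENO1-AS1 had 55, 68 and 33 reads in normoxia and 27, 41 and 98 reads in hypoxia, and was not called (log2 fold change -0.58 ± 0.30, adjusted p = 0.127, or -0.85, adjusted p = 0.0179, without both libraries numbered 3), whereas the ratio moved towards ENO1 (log2 change of the ratio -1.28 ± 0.33, adjusted p = 0.0092). With 0.0492% of the reads of ENO1 and 28.2% of its exon bases in ENO1 exons, ENO1-AS1 is among the genes whose values are uncertain. BHLHE40, a repressor of the circadian clock, rose by 1.22 ± 0.11 on the log2 scale (adjusted p = 0.000115). BHLHE40-AS1 had 1.75, 1.24 and 0.743 CPM in normoxia and 2.64, 2.54 and 1.77 CPM in hypoxia, and its call (log2 fold change 0.87 ± 0.33, adjusted p = 0.047) was lost without normoxia replicate 2 or 3 or hypoxia replicate 1 or 2 (adjusted p from 0.0963 to 0.138).

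Of the 6 most abundant antisense genes, 2 rose, 2 fell and 2 were not called, where 30.4% of all tested genes rose and 29.1% fell. LRRC75A-AS1, a host gene of small nucleolar RNAs, had 233, 265 and 234 CPM in normoxia and 422, 444 and 360.1 CPM in hypoxia. It rose without overlap (log2 fold change 0.74 ± 0.10, adjusted p = 0.000627), and LRRC75A, near the limit of detection, had 12, 7 and 5 reads in normoxia and 65, 49 and 113 reads in hypoxia (log2 fold change 2.63 ± 0.31, adjusted p = 0.000346). PSMA3-AS1 rose from 73.9 ± 6.92 to 94.5 ± 11.7 CPM (log2 fold change 0.35 ± 0.12, adjusted p = 0.0288, lost without normoxia replicate 1 or 3 or hypoxia replicate 1 or 2) while PSMA3, a proteasome subunit, fell from 136 ± 13.1 to 77.8 ± 5.48 CPM (log2 fold change -0.81 ± 0.10, adjusted p = 0.000355). FAM83H-AS1 had 119 ± 10.6 CPM in normoxia and 106 ± 13.1 CPM in hypoxia and no call (log2 fold change -0.16 ± 0.11, adjusted p = 0.23), but was lower with the replicate block (-0.17, adjusted p = 0.0225). FAM83H, a keratin-associated gene, fell by 0.75 ± 0.13 on the log2 scale (adjusted p = 0.00179). MMP24-AS1 had 95.8 ± 22.7 CPM in normoxia and 112 ± 23.5 CPM in hypoxia (log2 fold change 0.22 ± 0.19, adjusted p = 0.344) and with the block rose by 0.23 (adjusted p = 0.00695). Its partner MMP24, a membrane-anchored metalloproteinase that shares 38.2% of the exon bases of MMP24-AS1, had 25, 15 and 6 reads in normoxia and 39, 60 and 49 reads in hypoxia (log2 fold change 1.27 ± 0.53, adjusted p = 0.0675). The block called MMP24 higher (1.32, adjusted p = 0.00823) and the ratio lower (-1.07, 0.00768), and MMP24 was also called by the exact test of edgeR (0.0309), by DESeq2 (0.0465), with upper-quartile scaling (0.0492) and without hypoxia replicate 3 (0.0184).

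Of 30 listed noncoding genes with a described role, 17 were members, of which 6 rose (among them BHLHE40-AS1, HIF1A-AS2, LOXL1-AS1, PSMA3-AS1 and ZEB1-AS1), 4 fell (FGD5-AS1, GATA3-AS1, OIP5-AS1 and TMPO-AS1) and 7 were not called. Over all tested genes 30.4% rose and 29.1% fell, and at the antisense genes' counts 47% and 10.4%. No difference from these shares was tested. ZEB1-AS1 starts 600 bases inside the gene of ZEB1, a factor of the epithelial to mesenchymal transition. ZEB1-AS1 had 3.90, 3.55 and 3.33 CPM in normoxia and 7.12, 8.28 and 8.45 CPM in hypoxia. It rose by 1.15 ± 0.15 on the log2 scale (adjusted p = 0.000479), while ZEB1 had 1, 0 and 4 reads in normoxia and 6, 10 and 24 reads in hypoxia and was not tested. TMPO-AS1 and TMPO, a nuclear lamina gene, both fell, by 0.82 ± 0.18 on the log2 scale (adjusted p = 0.00482) and by 1.04 ± 0.12 on the log2 scale (adjusted p = 0.000328). OIP5-AS1, also known as cyrano, fell by 0.34 ± 0.08 on the log2 scale (adjusted p = 0.00858), and OIP5, of the centromere, by 0.86 ± 0.21 on the log2 scale (adjusted p = 0.00848). The call of OIP5-AS1 was lost with upper-quartile scaling (adjusted p = 0.1), and its gain on OIP5 was not called (log2 change of the ratio 0.52 ± 0.20, adjusted p = 0.0517). That gain was called with the block (0.56, adjusted p = 3.85e-05), with no precision weights (0.0347), with a pseudocount of 2 (0.0483), without hypoxia replicate 3 (0.00744) and without both libraries numbered 3 (3.05e-05).

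In 4 of these pairs besides MAFG the partner was called and the antisense gene was not, and the ratio was called in 3 of the 4. NNT, a mitochondrial transhydrogenase, fell from 249 ± 19.0 to 148 ± 5.89 CPM (log2 fold change -0.75 ± 0.08, adjusted p = 0.000248), while NNT-AS1 had 24.3 ± 1.42 CPM in normoxia and 24.2 ± 1.05 CPM in hypoxia (log2 fold change -0.01 ± 0.09, adjusted p = 0.962), and the antisense gene gained on NNT (log2 change of the ratio 0.74 ± 0.10, adjusted p = 0.000469). CDKN2B, which encodes the cell cycle inhibitor p15, rose by 0.95 ± 0.14 on the log2 scale (adjusted p = 0.00101), whereas CDKN2B-AS1, known as ANRIL, had 4.18, 4.59 and 3.78 CPM in normoxia and 3.93, 3.64 and 4.10 CPM in hypoxia, groups that overlapped (log2 fold change -0.11 ± 0.16, adjusted p = 0.581), and the antisense gene lost against CDKN2B (log2 change of the ratio -1.05 ± 0.18, adjusted p = 0.00117). KDM4A, a histone demethylase, rose by 0.82 ± 0.10 on the log2 scale (adjusted p = 0.000453), and KDM4A-AS1 had 2.43 ± 0.200 CPM in normoxia and 2.59 ± 0.435 CPM in hypoxia (log2 fold change 0.10 ± 0.20, adjusted p = 0.691). The ratio of that pair (log2 change -0.71 ± 0.22, adjusted p = 0.0238) was no longer called without normoxia replicate 1 or 3 or hypoxia replicate 1. SBF2 rose by 0.51 ± 0.11 on the log2 scale (adjusted p = 0.00476), and SBF2-AS1 had 10.7 ± 1.74 CPM in normoxia and 13.8 ± 2.27 CPM in hypoxia (log2 fold change 0.37 ± 0.17, adjusted p = 0.0833), with no difference between the genes shown by the ratio (log2 change -0.09 ± 0.19, adjusted p = 0.7). SBF2-AS1 was called higher with upper-quartile scaling (0.52, adjusted p = 0.0286) and without normoxia replicate 2 (0.48, 0.0493), and the ratio was called without both libraries numbered 3 (-0.35, 0.0235). Neither MCM3AP (log2 fold change -0.03 ± 0.08, adjusted p = 0.739) nor MCM3AP-AS1 (log2 fold change -0.03 ± 0.13, adjusted p = 0.86) was called.

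Overlap of exons was deepest in 6 pairs, of whose antisense genes 3 rose and 3 were not called, where 30.4% of all tested genes rose. The antisense gene had 59.5% to 75.9% of its exon bases inside partner exons in SNRK-AS1, ELOA-AS1, TTN-AS1, ZNF710-AS1, ZSWIM8-AS1 and HIF1A-AS2. SNRK-AS1 had 2.80 ± 0.654 CPM in normoxia and 2.29 ± 0.460 CPM in hypoxia (log2 fold change -0.30 ± 0.25, adjusted p = 0.316) and the kinase gene SNRK 24.8 ± 0.890 CPM in normoxia and 24.6 ± 1.82 CPM in hypoxia (log2 fold change -0.01 ± 0.09, adjusted p = 0.963). ELOA-AS1 was not called (log2 fold change 0.18 ± 0.19, adjusted p = 0.429) and ELOA, elongin A, was lower (log2 fold change -0.31 ± 0.09, adjusted p = 0.0178), a call lost with upper-quartile scaling and without normoxia replicate 1 or hypoxia replicate 1. Their ratio was not called (log2 change 0.49 ± 0.19, adjusted p = 0.0542), but was with the block (0.50, adjusted p = 0.015) and without normoxia replicate 2 (0.64, 0.0286). ZNF710-AS1 rose by 0.78 ± 0.16 on the log2 scale (adjusted p = 0.00393), and ZNF710 was not called (log2 fold change 0.20 ± 0.17, adjusted p = 0.344, or 0.0393 with the block). ZSWIM8-AS1 was not called (log2 fold change 0.15 ± 0.25, adjusted p = 0.638), nor was ZSWIM8 (log2 fold change 0.16 ± 0.07, adjusted p = 0.0656, or 0.0252 with the block).

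TTN, the muscle protein titin, had 3, 3 and 2 reads in normoxia and 62, 61 and 59 reads in hypoxia, and passed the test (adjusted p = 0.00058). TTN-AS1, which has 70.4% of its exon bases in TTN exons, had 11.7, 9.92 and 10.8 CPM in normoxia and 16.7, 15.3 and 13.1 CPM in hypoxia. It rose by 0.47 ± 0.13 on the log2 scale (adjusted p = 0.014), a call lost without normoxia replicate 2 or hypoxia replicate 1, and per kilobase it was far above TTN (2.02 against 0.0058 CPM per kb). In normoxia TTN thus had 2 or 3 reads where TTN-AS1 had 334 to 462.

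Genes acting on antisense and double-stranded RNA were called lower more often than higher, as were other genes at their counts. Of 25 listed genes of the nuclear exosome and the factors that bring RNA to it, 23 were tested, 4 rose and 11 fell, with a median log2 fold change of -0.19 against 0.028 over all tested genes. Over all tested genes 30.4% rose and 29.1% fell, but of the 3549 with mean counts in the interquartile range of the list 21.4% rose and 42% fell. The core subunits EXOSC9, EXOSC6 and EXOSC4 fell by 1.00, 1.10 and 1.06 on the log2 scale (adjusted p = 0.000301, 0.000868 and 0.00174), and the catalytic EXOSC10 by 0.45 (0.00144). EXOSC9 went from 50.3 ± 4.60 to 25.01 ± 3.02 CPM (mean ± SD, n = 3). ZCCHC7, ZCCHC8 and RBM7, adaptors that carry RNA to the exosome, rose by 1.06, 0.41 and 0.71 (adjusted p = 0.000901, 0.0192 and 0.001), and so did the polymerase PAPD7 by 0.40 (0.0027).

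Of 25 listed genes that edit, cut or sense double-stranded RNA, 21 were tested, 3 rose and 13 fell, with a median of -0.28. Of the 6537 tested genes in the interquartile range of that list 21.2% rose and 42.3% fell. Both lists were chosen with earlier results of these data known, and no difference from other genes was tested. The nuclear double-strand binders ILF2 and DHX9 fell by 1.08 each (adjusted p = 0.000305 and 0.000169), the editor ADAR by 0.21 (0.0365), and the microprocessor genes DROSHA and DGCR8 by 0.28 and 0.63 (0.0093 and 0.00147). ADARB1 rose by 0.78 (adjusted p = 0.00357), AGO4 by 0.84 (0.00219) and the receptor TLR3 by 1.89 (0.00595), from a normoxia mean of 0.294 ± 0.186 CPM to a hypoxia mean of 1.13 ± 0.287 CPM. Gene symbols of the related sense classes were few, with 13 sense intronic genes tested (5 higher, 2 lower) and 1 sense overlapping gene (0 called by edgeR's quasi-likelihood test). Over all tested genes 30.4% were called higher and 29.1% lower.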

How the data were processed

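RNA from T47D cells, 3 cultures in 20% O2 and 3 after 48 h at 0.5% O2, was sequenced by the authors from stranded mRNA libraries. Per the study's methods and the submitters' processing notes, reads were checked with FastQC 0.11.5, trimmed with Skewer, aligned to GRCh37 (hg19) with STAR 2.5.2a and counted per RefSeq gene with featureCounts 1.5.1. The authors deposited raw counts per gene with exon coordinates and the summed exon length, without normalization, 1 file per library. How strand was set in the counting, and how multiply matching reads were treated, is not given in the sources used here. Reads that match near-identical genes, or genes overlapping on the same strand, may have been lost or split, and 4 of the pairs are listed at more than 1 locus. The strand check above found opposite-strand genes counted apart, although a small leak of reads could not be measured.

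DESeq2 1.42.0, limma 3.58.1 and edgeR 4.0.16 were run under R 4.3.3, and figures were made by matplotlib 3.10.9 under Python 3.11.15. The filter filterByExpr (minimum count 10, minimum total 15) passed 15657 genes. These entered the quasi-likelihood test of edgeR with the 6 libraries scaled by TMM and a single term for oxygen, and p-values were adjusted over all of them by Benjamini-Hochberg. The study's methods name edgeR's exact test, run as an alternative. The antisense-to-sense difference of log2 CPM (pseudocount 0.5 counts) was tested with limma and the combined voom weights of both genes, adjusted over 3052 opposite-strand pairs with overlapping bodies or starts within 1000 bases, together with all pairs described. Exons were taken as overlapping from the coordinates in the files. Sequences were read from the GRCh37 genome, where no gene ran past a chromosome end and 91.7% of 1176 introns of the antisense genes began and ended with the usual splice letters. The scripts were tested on simulated data.

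Same-numbered libraries deviated together from their condition means (correlation across genes of 0.426, 0.495 and 0.624 for replicates 1, 2 and 3). Libraries with different numbers were not compared in this way, so that a pairing by number was not shown here. The study's methods call the hypoxia and normoxia samples paired, although the labels do not state which libraries form a pair. The labels' numbers served as pairs only in the replicate block, an alternative, and the main tests left them out. No 2 replicates agreed within sampling noise (chi-square per degree of freedom of 6.09 to 68.5). A count of 3, taken as the floor, was 0.0334 to 0.0909 CPM, and this floor covers counting error only.

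The members and all lists were chosen with earlier results of these data known. Named were the 8 largest rises and 8 largest falls at a mean of at least 100 reads, the 5 pairs called in opposite and the 5 in the same direction with the largest summed changes, both genes of a pair having a mean of at least 100 reads, the 6 most abundant antisense genes, the 6 deepest exon overlaps, members with a described role, pairs of textbook HIF targets, and neighbours of the limit of 20 reads. Other named genes are said to have been chosen after their values were seen. Alternatives covered scaling, test, filter, thresholds, the replicate block, overlapping exons and each library left out. Added after seeing the data were the ratio and the correlations without replicate 3, the correlations without each library, and the counts without members under 2% of the reads of a partner with overlapping exons. Results for a few genes and sequences are not reported here.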

Additional observations from a re-analysis of the deposited data

How the results depend on the processing

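Among named genes and ratios no call reversed, and the limits lie in counts. The balance of partners turned, from 126 higher and 113 lower to 58 and 69 without pairs whose exons overlap. It was 64 and 68 for members with a mean of at least 100 reads. Of the alternatives for named genes and ratios, 1379 kept the outcome of the main test, whether called or not, 49 lost a call and 38 gained one. Leaving out each library in turn gave 118 to 156 antisense genes higher, 33 to 52 lower, 100 to 128 partners higher, 93 to 122 lower, 55 to 81 pairs in the same and 27 to 50 in opposite directions, 111 to 147 ratios gained by the antisense and 45 to 60 by the sense gene, Pearson's r of 0.199 to 0.241 and rho of 0.189 to 0.218. Antisense genes lower came to 33 without normoxia replicate 1 and without hypoxia replicate 2, pairs in the same direction to 55 without either, and opposite pairs to 28, 27 and 27 without normoxia replicate 1, hypoxia replicate 1 or hypoxia replicate 2. Without both libraries numbered 3, 185 antisense genes were higher and 60 lower, with 103 pairs in the same and 74 in opposite directions.

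Upper-quartile scaling moved the median of all genes from 0.028 to 0.185 and left 33 antisense genes lower (192 higher, 85.3% of calls against 76.5%). With the replicate block 195 antisense genes were higher and 61 lower, 151 partners higher and 137 lower, 111 pairs went the same way and 77 opposite ways; of the named genes and ratios, the block changed only the calls given with it in the report. At an adjusted p under 0.01 there were 104 antisense genes higher and 25 lower, and 43 pairs in the same and 19 in opposite directions. Asking for a log2 change of 1 or more in either direction left 100 and 11 antisense genes, 48 and 20 partners, and 26 and 5 pairs. Members with a mean of at least 100 reads gave 76 antisense genes and 64 partners higher, 68 partners lower, and 43 and 29 pairs. Without pairs whose exons overlap there were 90 antisense genes higher and 27 lower, 58 partners higher and 69 lower, 39 pairs in the same direction, 86 and 25 ratios called, r of 0.162 and rho of 0.169; with both genes at 100 reads or more r was 0.066 and rho 0.139. These alternatives test fewer genes or ask for more. Covering a gene to at least 90% gave 5 genes over 120 reads in opposite-strand exons and 17 in same-strand exons, where reads can come from the uncovered part. In all, 192 members had fewer than 100 reads on average, and their small changes may not have been detectable at this depth.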

Other observations

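Antisense genes whose partner the files do not list also changed. HOXC-AS2 and HOXC-AS3, from the HOXC cluster of developmental regulators, rose from 2.97 ± 0.258 to 4.79 ± 0.348 CPM and from 3.95 ± 0.0874 to 5.20 ± 0.283 CPM (log2 fold change 0.69 ± 0.16 and 0.39 ± 0.14, adjusted p = 0.00647 and 0.0388 by edgeR's quasi-likelihood test). HOXC-AS1 from the same cluster had 2.68 ± 0.824 and 2.56 ± 0.537 CPM (adjusted p = 0.838). KRTAP5-AS1 rose from 1.20 ± 0.387 to 2.67 ± 0.203 CPM (adjusted p = 0.00638), and RPARP-AS1 fell from 24.5 ± 2.23 to 15.6 ± 2.77 CPM (adjusted p = 0.00592).

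MIF-AS1, antisense to the gene of the cytokine MIF, moved with the replicate number and not with oxygen. It had 5.85, 6.64 and 1.39 CPM in normoxia and 7.14, 6.56 and 1.21 CPM in hypoxia, replicate 3 being the lowest in both. MIF had 309.6, 279.9 and 452.3 CPM in normoxia and 283.4, 259.8 and 486.0 CPM in hypoxia, replicate 3 being the highest. Neither was called in hypoxia (adjusted p = 0.94 and 0.961). MIF-AS1 had 1.14% of the reads of MIF and shares exon bases with it, so that its values are uncertain like those of the other such pairs under 2%. The gene was chosen after its values were seen, and no test of replicate 3 against the others was made.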
